A study of Mus musculus with 88 samples.

Results

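The clustered protocadherin genes of the mouse were followed through 3 brain regions of 2 inbred strains, in unstressed mice and in mice exposed to chronic social defeat stress (CSDS). The genes were taken by name alone, as every gene whose GRCm38 symbol begins with Pcdha, Pcdhb or Pcdhg, and no measured value entered the choice. This gave 58 genes of the 48811 listed in at least 1 of the 3 region tables. They lie on the plus strand of chromosome 18 (GRCm38) as 3 arrays: 14 alpha genes between positions 36930184 and 37187661, 22 beta genes between 37264938 and 37524479, and 22 gamma genes between 37661793 and 37841873. The table of the medial prefrontal cortex (mPFC) held 56 of them, without Pcdhb1 and Pcdhgb8. That of the ventral hippocampus (vHPC) also held 56, without Pcdhga10 and Pcdhgb8. That of the bed nucleus of the stria terminalis (BNST) held all 58, of which 57 were expressed highly enough to be tested.

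Clustered protocadherins are cell adhesion proteins of the neuronal surface that bind the same isoform on a facing membrane, and each neuron shows its own combination of them, which is used in self-avoidance of dendrites and axons and in tiling of axons. In the alpha and gamma arrays each gene has its own promoter and a large variable first exon that is spliced to constant exons shared by the whole array, so that all isoforms of an array end in the same cytoplasmic part, whereas a beta gene is a single coding exon with no shared part. Promoters of the alternate isoforms are chosen in each neuron through the insulator protein CTCF, cohesin and DNA methylation. The C-type isoforms at the end of the alpha and gamma arrays (Pcdhac1, Pcdhac2, Pcdhgc3, Pcdhgc4 and Pcdhgc5) are used more widely: Pcdhac2 in serotonergic axons, Pcdhgc4 in neuronal survival.

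Males of the strains C57BL/6Crl (B6) and DBA/2Crl (D2), 8 weeks old at dissection, were either defeated daily by larger CD1 males or kept as controls without defeat. Defeated mice were sorted by a ratio of the time spent near a social target to that spent near an empty cylinder. A mouse more than 1 SD below the mean of undefeated controls of its strain was called susceptible, and any other resilient. The border was thus set within each strain and differed between them, and phenotype was sorted by behaviour after the stress and not assigned. The mPFC comprised 6 control, 6 resilient and 6 susceptible B6 mice with 6 control and 8 susceptible D2 mice. The BNST comprised 5 control, 5 resilient and 5 susceptible B6 mice with 5 control, 3 resilient and 5 susceptible D2 mice, and the vHPC 6 control, 8 resilient and 3 susceptible B6 mice with 6 control and 5 susceptible D2 mice. All mice were housed alone from the end of the defeat period to dissection, and each library was made from tissue of 1 mouse. The 88 libraries came from 81 mice, since 7 mice gave both mPFC and vHPC tissue while the BNST mice gave no other region.

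BNST libraries held 11825757 to 25793910 counts in genes (median 15273700), and 11521 to 27786 of these (0.0771 to 0.147%) fell on the clustered protocadherins; the depth behind the mPFC and vHPC tables is unknown from their log2 values. Each region was normalized separately with a different library kit, so levels were set side by side between regions without a test. The 5 markers of BNST and amygdala neurons summed to 617 to 1692 counts per 1000000 counted reads (CPM) in the BNST of B6 controls, against 42.9 to 114 in the mPFC and 5.08 to 7.95 in the vHPC, and markers of hippocampal neurons were nearly as high in the BNST (875 to 1218 CPM) as in the vHPC (1135 to 1236 CPM). Oligodendrocyte markers differed between the groups: all 5 were lower in D2 than in B6 controls in the mPFC (952 to 1401 against 1445 to 2755 CPM) and in the vHPC (1198 to 1872 against 2973 to 3378 CPM). In the vHPC 5 of 5 endothelial and 5 of 5 choroid plexus markers were lower in D2 controls as well and 4 of 6 markers of inhibitory neurons higher, and no marker passed the test in the BNST. These counts stand beside 27.8, 2.51 and 59.3% of all genes past the test between control strains in mPFC, BNST and vHPC. In bulk tissue fewer cells of a type and less RNA per cell cannot be told apart, and the part of cell composition in the differences below was not tested. The libraries that stood apart numbered 3: the BNST library of D2 control replicate 2, with the summed beta level at 495 CPM against 294 to 333 in the other D2 controls, that of B6 susceptible replicate 3 in the BNST, with striatal markers at 5284 CPM against 1325 to 1649, and that of B6 susceptible replicate 4 in the mPFC, with markers of excitatory neurons at 336 CPM against 561 to 623.

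Levels differed widely among the isoforms of an array. Levels were compared between genes per kb of the exon sequence that no other gene on the same strand covers, in B6 controls, on the log2 CPM per kb scale. Pcdhgc5, the last gene of the gamma array, was highest in every region by this length, at 4.04 (mPFC), 4.8 (BNST) and 3.82 (vHPC), or 16.5, 27.9 and 14.1 CPM per kb as a geometric mean. Pcdhac2, the last gene of the alpha array, was the highest alpha gene in every region (3.41, 3.72 and 3.52). The alpha array ended at the other extreme with Pcdha1, its first gene, at -0.31, -1.65 and -0.86. The median gene of the gamma array (2.43, 3.24 and 2.2) was above the median alpha gene (1.90, 0.30 and 1.42) and the median beta gene (1.81, 1.47 and 1.29) in each region.

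**Figure D1:**
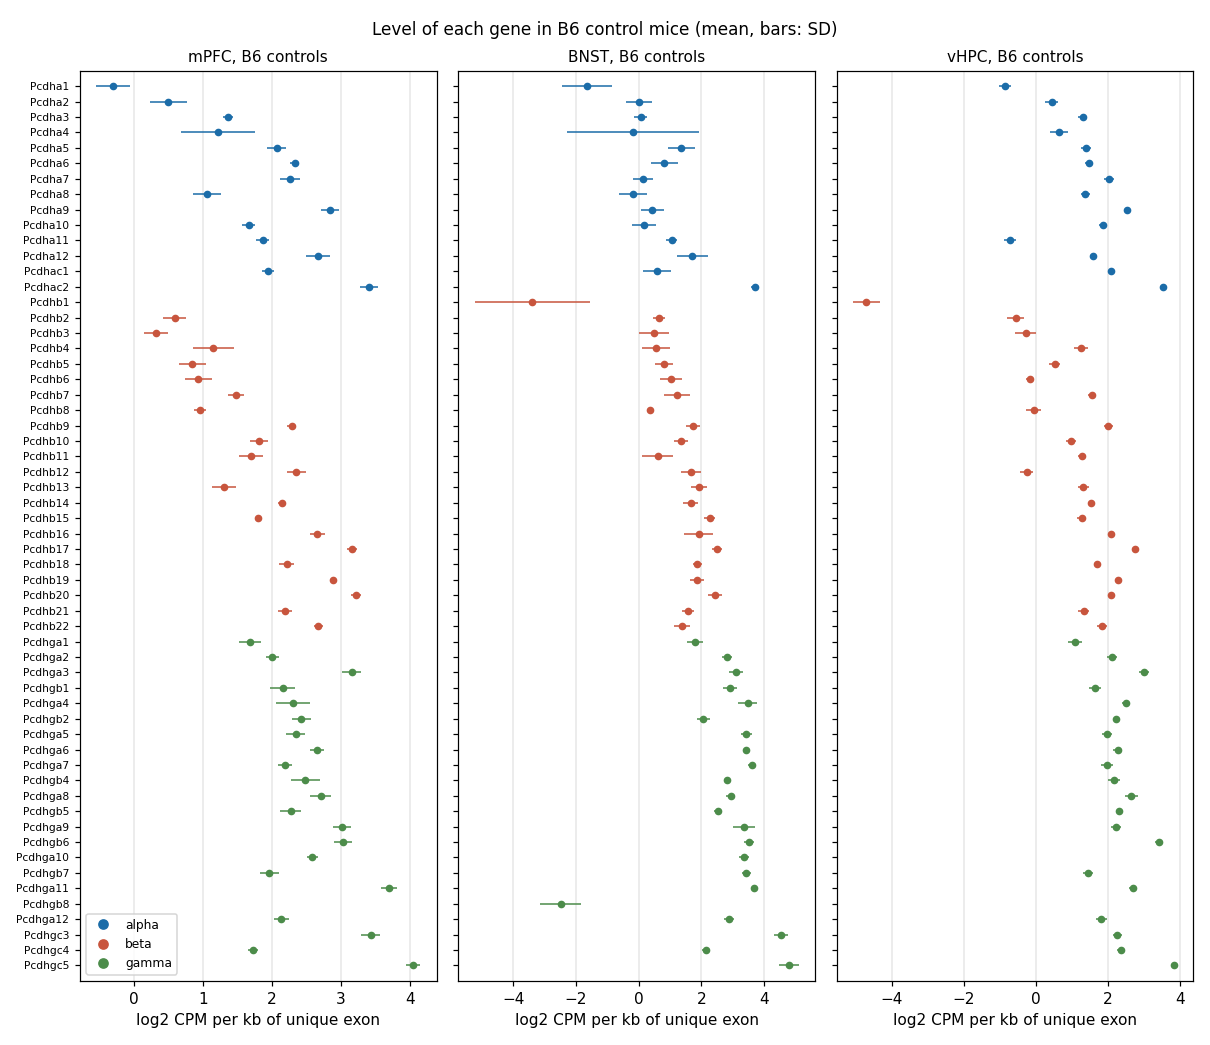
Level of each clustered protocadherin gene in B6 control mice of each region, as log2 CPM per kb of unique exon on the x axis (scales differ between panels), with genes in their order along chromosome 18 on the y axis. Points are means over mice (n = 6, 5 and 6) and bars the SD; Pcdhgc5 at the foot is the highest point in each panel, and Pcdha1 is the lowest alpha point in all panels and Pcdhb1 the lowest point where it was measured.

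Regional order was shared in part. Across genes, levels per kb in B6 controls were correlated at r = 0.76 between mPFC and BNST (56 genes), 0.82 between mPFC and vHPC (55 genes) and 0.76 between BNST and vHPC (56 genes), a description in which the points share gene length and annotation. The C-type genes Pcdhgc3, Pcdhgc4 and Pcdhac1 changed place in the order. Pcdhgc3 ranked next to Pcdhgc5 in the BNST at 4.54 log2 CPM per kb and was at 3.43 in the mPFC, but stood at rank 14 in the vHPC (2.25). Of its exon, 3380 bases are unique on its own strand and 1821 when both strands are considered. Whether reads were counted by strand is not given for any region, so the place of Pcdhgc3 in each order can depend on the length used. Pcdhga10, with 0 bases unique when both strands are considered, was absent from the vHPC table and held 229 to 947 counts in BNST libraries. Whether overlapped exon was counted alike in the regions was not tested, so the vHPC rank of Pcdhgc3 is not read as a regional change. Pcdhgc4 stood at ranks 40, 23 and 10 in mPFC, BNST and vHPC, and Pcdhac1 at ranks 36, 45 and 21. The BNST alpha array was the one most taken up by a single isoform: Pcdhac2 made up 44.6 ± 5.05% (SD, n = 5) of its summed CPM there, 29.5 ± 0.83% (n = 6) in the vHPC and 21.4 ± 1.74% (n = 6) in the mPFC. Among beta genes Pcdhb20 was highest in the mPFC (3.22) and Pcdhb17 in the BNST (2.5) and vHPC (2.75), and Pcdhb3 (0.32) was lowest in the mPFC. The lowest gamma genes were Pcdhga1 in the mPFC (1.68) and vHPC (1.07) and Pcdhgb8, annotated as a polymorphic pseudogene, in the BNST (-2.48). Which isoform was the extreme of its array depended on the length used. Per kb of coding sequence Pcdha4 replaced Pcdha1 as the lowest alpha gene in all regions. When exon overlapped by a gene on either strand was left out, a length added after these values were seen, the highest gamma gene became Pcdhga11 in the mPFC (4.77) and Pcdhgc3 in the BNST (5.43), and the highest alpha gene of the mPFC became Pcdha11 (3.73). In the vHPC Pcdhgc5 (3.82) and Pcdhac2 (3.52) stayed the highest gamma and alpha genes by this length, as did Pcdhac2 in the BNST (3.72). This length raises overlapped genes too far where reads were counted by strand.

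The arrays differed between the strains in all regions. In D2 relative to B6 controls, 27 of 56 genes were higher and 9 lower in the mPFC (limma, Benjamini-Hochberg adjusted p under 0.05), where 27.8% of all genes tested differed. In the BNST 4 were higher and 4 lower of 57 (edgeR's quasi-likelihood test), beside 2.51% of all genes, and DESeq2 called 5 higher and 6 lower. In the vHPC 39 were higher and 7 lower of 56 (limma), beside 59.3% of all genes. The beta genes past the test were higher in D2 in each region, those of the gamma array were lower in the BNST and of both directions elsewhere, and those of the alpha array were mostly higher.

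The vHPC counts carry a limit of their own. No vHPC library preparation set held controls of both strains, or both control and defeated B6 mice, so no within-set value could be given; with the set as a term in the model 13 genes were higher and 4 lower between control strains, and the median differences were 0.59 (alpha) and 0.65 (beta) with it against 0.38 and 0.47 without it. In the mPFC most sets, and in the BNST both, held controls of both strains, and with the set as a term 31 mPFC and 9 BNST genes passed the test. Set differences had been removed from the mPFC and vHPC values before deposit, which the main fits did not count. SE and p-values of the mPFC and vHPC can therefore be too small, and their counts are not on the same footing as those of the BNST.

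**Figure D2:**
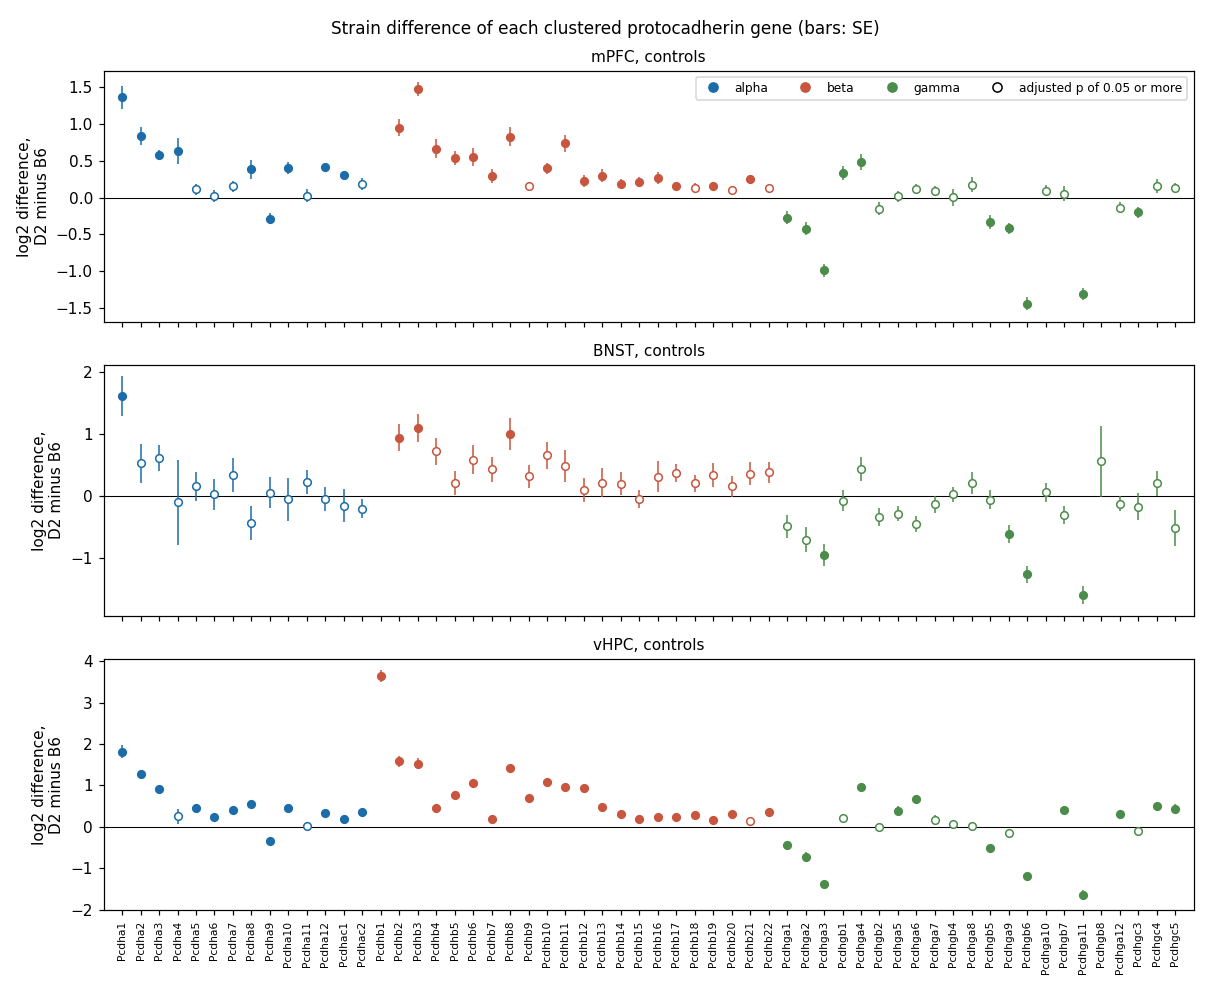
Difference between D2 and B6 controls of each gene (y axis, log2, D2 minus B6; bars, SE) in gene order (x axis) for mPFC (6 against 6 mice), BNST (5 against 5) and vHPC (6 against 6), with y scales that differ between panels. Filled points have an adjusted p under 0.05; the beta points sit above 0 except Pcdhb15 in the BNST, Pcdha1 and Pcdhb3 stand far above 0, and Pcdhga3, Pcdhgb6 and Pcdhga11 stand lowest among the gamma genes in each panel.

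Among alpha genes, D2 controls were higher in 8 and lower in 1 in the mPFC. The BNST had 1 that was higher, and the vHPC 11 that were higher and 1 lower. The median difference over the 14 genes was 0.35, 0.04 and 0.38 on the log2 scale, beside 0.00, 0.04 and 0.01 over all genes tested. The summed alpha level did not overlap between control groups in the mPFC (148 to 155 CPM in B6, 167 to 187 in D2) or the vHPC (113 to 124 and 141 to 163) and overlapped in the BNST (81.0 to 103 and 81.0 to 102).

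Pcdha1 (ENSMUSG00000103442, positions 36930184 to 37187661), the isoform at the start of the array, differed in every region. In the mPFC its log2 CPM was 0.72 to 1.31 (median 1.05, n = 6) in B6 controls and 2.177 to 2.6 (median 2.37, n = 6) in D2 controls. In the BNST the B6 controls were at -1.59, -0.45, -0.29, 0.13 and 0.51, resting on 4 to 21 counts a library, and the D2 controls at 0.84, 1.176, 1.36, 1.73 and 1.74 on 21 to 47 counts. In the vHPC they were at 0.29 to 0.74 (median 0.45, n = 6) and 2.08 to 2.43 (median 2.26, n = 6). The control groups did not overlap in any region, and D2 was higher throughout; of all genes tested, 11.7% in the mPFC, 3.41% for BNST tissue and 36.7% for vHPC tissue did not overlap. The differences were 1.37 ± 0.16 (SE), 1.61 ± 0.32 and 1.81 ± 0.16 in these regions, or 2.58-, 3.06- and 3.51-fold (adjusted p = 6.7e-08, 0.0022 and 3.1e-10; limma, edgeR and limma). Because of the low counts in the BNST, that fold depends on the prior count more than the others do.

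The neighbours of Pcdha1 differed in the same direction. Pcdha2 was higher in D2 controls by 0.84 ± 0.12 in the mPFC and by 1.27 ± 0.09 (2.41-fold) in the vHPC, and its BNST difference of 0.53 ± 0.31 did not pass the test (adjusted p = 0.47). Pcdha3 was higher by 0.59 ± 0.06 and 0.90 ± 0.07 in the mPFC and vHPC, and at 0.61 ± 0.21 in the BNST (adjusted p = 0.16). Over Pcdha1 to Pcdha4 the median difference was 0.74, 0.57 and 1.09 in mPFC, BNST and vHPC, against 0.17, -0.01 and 0.34 over the other 10 alpha genes, a split of the array chosen after these values were seen. Pcdha9 was the 1 alpha gene that was lower in D2 controls, at -0.29 ± 0.07 (adjusted p = 0.0031) in the mPFC and -0.34 ± 0.05 (adjusted p = 4e-07) in the vHPC, while its BNST difference was 0.06.

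All beta genes that were tested had a positive difference, D2 minus B6 controls, in the mPFC (21 of 21) and vHPC (22 of 22), and 20 of 21 did in the BNST. Past the test were 17 mPFC, 3 BNST and 21 vHPC values, none of them lower. The median difference was 0.27, 0.36 and 0.47. Summed over the array, B6 and D2 controls held 381 to 421 and 453 to 529 CPM in the mPFC, 245 to 276 and 344 to 368 in the vHPC, and 245 to 320 and 294 to 495 in the BNST, where the groups overlapped. Reads of beta genes are the least open to sharing between isoforms, since 0 to 7.87% of their 96-base stretches occur in another clustered protocadherin gene, against 41.8 to 56.9% for alpha and 26.0 to 62.9% for gamma genes.

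Pcdhb3 (ENSMUSG00000045498, positions 37300799 to 37304585) showed the largest beta difference in the mPFC and BNST. Its log2 CPM in the mPFC was 1.97 to 2.44 (median 2.28, n = 6) in B6 controls and 3.52 to 3.99 (median 3.71, n = 6) in D2 controls. BNST levels were 1.77, 2.25, 2.28, 2.81 and 2.94 in B6 and 3.2, 3.31, 3.44, 3.5 and 4.18 in D2 controls. In the vHPC they ran from 1.26 to 1.98 (median 1.65) and from 2.85 to 3.32 (median 3.19). Every D2 control was above every B6 control in each region. The differences of 1.48 ± 0.09, 1.10 ± 0.22 and 1.53 ± 0.14 had adjusted p of 1.3e-13 (limma), 0.0028 (edgeR) and 9.3e-10 (limma), and the vHPC value with the library set as a term was 1.73 (adjusted p = 0.056). As a share of the summed beta CPM in the mPFC, Pcdhb3 stood at 1.183 ± 0.14% in B6 and 2.70 ± 0.20% in D2 controls.

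Pcdhb2 and Pcdhb8 followed the same order. For Pcdhb2 the B6 and D2 controls were at 1.86 to 2.37 and 2.98 to 3.147 in the mPFC, at 1.86 to 2.36 and 2.79 to 3.45 in the BNST, and at 0.65 to 1.21 and 2.28 to 2.68 in the vHPC. Its differences were 0.95 ± 0.12, 0.94 ± 0.22 and 1.58 ± 0.13 (adjusted p = 1.5e-07, 0.011 and 1.7e-10; limma, edgeR and limma). For Pcdhb8 the ranges were 2.57 to 2.82 and 3.34 to 3.84 in the mPFC, 2.00 to 2.27 and 2.52 to 3.75 in the BNST, and 1.45 to 1.97 and 3.01 to 3.27 in the vHPC. Neither gene had overlapping control groups in any region. Pcdhb8 differed by 0.83 ± 0.13 (adjusted p = 1.1e-05, limma), 1.0 ± 0.26 (adjusted p = 0.027, edgeR) and 1.42 ± 0.08 (adjusted p = 1.9e-14, limma). The BNST call of Pcdhb8 was lost without D2 control replicate 2, the library with the high beta sum (0.81, adjusted p = 0.088), and without any of the 5 B6 controls or D2 control replicate 4 (0.96 to 1.02, adjusted p = 0.054 to 0.079), whereas Pcdhb3 (0.90, adjusted p = 0.011) and Pcdhb2 (0.84, adjusted p = 0.029) passed the test without it.

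Larger differences lay toward the start of the beta array. Over Pcdhb2 to Pcdhb12 the median difference was 0.56, 0.59 and 0.96 in mPFC, BNST and vHPC, with 10, 3 and 11 of the 11 genes past the test. Over Pcdhb13 to Pcdhb22 it was 0.18, 0.27 and 0.27, with 7, 0 and 9 of 10. The division was again made after the values were seen. In the BNST the 3 beta genes past the test, Pcdhb2, Pcdhb3 and Pcdhb8, are all in the first of these groups.

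In the gamma array genes differed in both directions. In D2 controls 2 genes were higher and 8 lower in the mPFC. The BNST had 4 that were lower, and the vHPC 7 that were higher and 6 lower. The median difference over the array was near 0 in the mPFC (0.00) and vHPC (0.04) and -0.22 in the BNST. The summed gamma level was lower in D2 controls in the mPFC (363 to 405 against 411 to 461 CPM) and overlapped in the BNST (386 to 642 and 580 to 753) and vHPC (331 to 359 and 325 to 361). In the vHPC 13 of the 20 genes in this sum differed (65%), a share near the 59.3% of all genes tested.

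Pcdhga11 (ENSMUSG00000102742, positions 37755731 to 37841873) was lower in D2 in all regions. In the mPFC it ran from 4.88 to 5.24 log2 CPM (median 5.12, n = 6) in B6 controls and from 3.6 to 4.0 (median 3.77, n = 6) in D2 controls. In the BNST the B6 controls were tightly grouped at 5.00, 5.03, 5.04, 5.05 and 5.22 and the D2 controls lay at 3.19, 3.23, 3.51, 3.53 and 3.80. In the vHPC the ranges were 3.98 to 4.175 (median 4.07) and 2.32 to 2.56 (median 2.46). The groups were more than 1 log2 unit apart at their closest in the BNST and vHPC. The differences were -1.31 ± 0.08, -1.60 ± 0.15 and -1.63 ± 0.10, or 2.48-, 3.03- and 3.11-fold lower (adjusted p = 3.1e-14, 1.6e-08 and 2e-13; limma, edgeR and limma). Part of its exons is overlapped by a gene on the other strand, and whether reads were counted by strand is not given in the sources used here.

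Pcdhgb6 (ENSMUSG00000103088, positions 37742094 to 37841873) was likewise lower in every region. Its B6 and D2 controls were at 4.18 to 4.58 (median 4.38) and 2.71 to 3.1 (median 3.02) in the mPFC and at 4.64 to 4.92 (median 4.75) and 3.5 to 3.66 (median 3.57) in the vHPC. In the BNST the values were 4.62, 4.85, 4.90, 4.90 and 5.06 against 3.3, 3.53, 3.63, 3.70 and 3.86. No D2 control reached the lowest B6 control in any region. The differences were -1.44 ± 0.09, -1.26 ± 0.14 and -1.19 ± 0.08 in the mPFC, BNST and vHPC (adjusted p = 1.9e-13, 4.3e-07 and 6.1e-13; limma, edgeR and limma). Its share of the summed gamma CPM was 7.95 ± 0.37% in B6 and 3.44 ± 0.21% in D2 controls of the vHPC.

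Pcdhga3 completed the group of genes that were lower in D2 controls in every region. Its levels were 4.32 to 4.7 and 3.33 to 3.84 in the mPFC, 4.21 to 4.68 and 2.86 to 4.07 in the BNST, and 4.145 to 4.55 and 2.78 to 3.19 in the vHPC, with no overlap. It differed by -0.99 ± 0.09, -0.95 ± 0.18 and -1.38 ± 0.10 (adjusted p = 2.9e-10, 0.0014 and 3.7e-12; limma, edgeR and limma). Pcdhga2, its neighbour, was lower in the mPFC (-0.43 ± 0.09) and vHPC (-0.72 ± 0.11) and was at -0.70 ± 0.20 in the BNST (adjusted p = 0.057, edgeR). Pcdhga9 was lower in the mPFC (-0.42 ± 0.07) and the BNST (-0.61 ± 0.15, adjusted p = 0.017; 0.051 to 0.086 without B6 control replicate 2 or 4 or D2 control replicate 5), with a vHPC difference of -0.14 ± 0.08 (adjusted p = 0.17). Pcdhga4, between these genes in the array, was higher in D2 controls, by 0.49 ± 0.11 in the mPFC and 0.96 ± 0.08 in the vHPC, and its BNST difference was 0.44 ± 0.19 (adjusted p = 0.3). Pcdhga6 passed the test in the vHPC (0.66 ± 0.09, adjusted p = 6e-07), with 0.12 in the mPFC (adjusted p = 0.19) and -0.45 ± 0.13 in the BNST (adjusted p = 0.076); a difference between the regions was not tested.

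**Figure D3:**
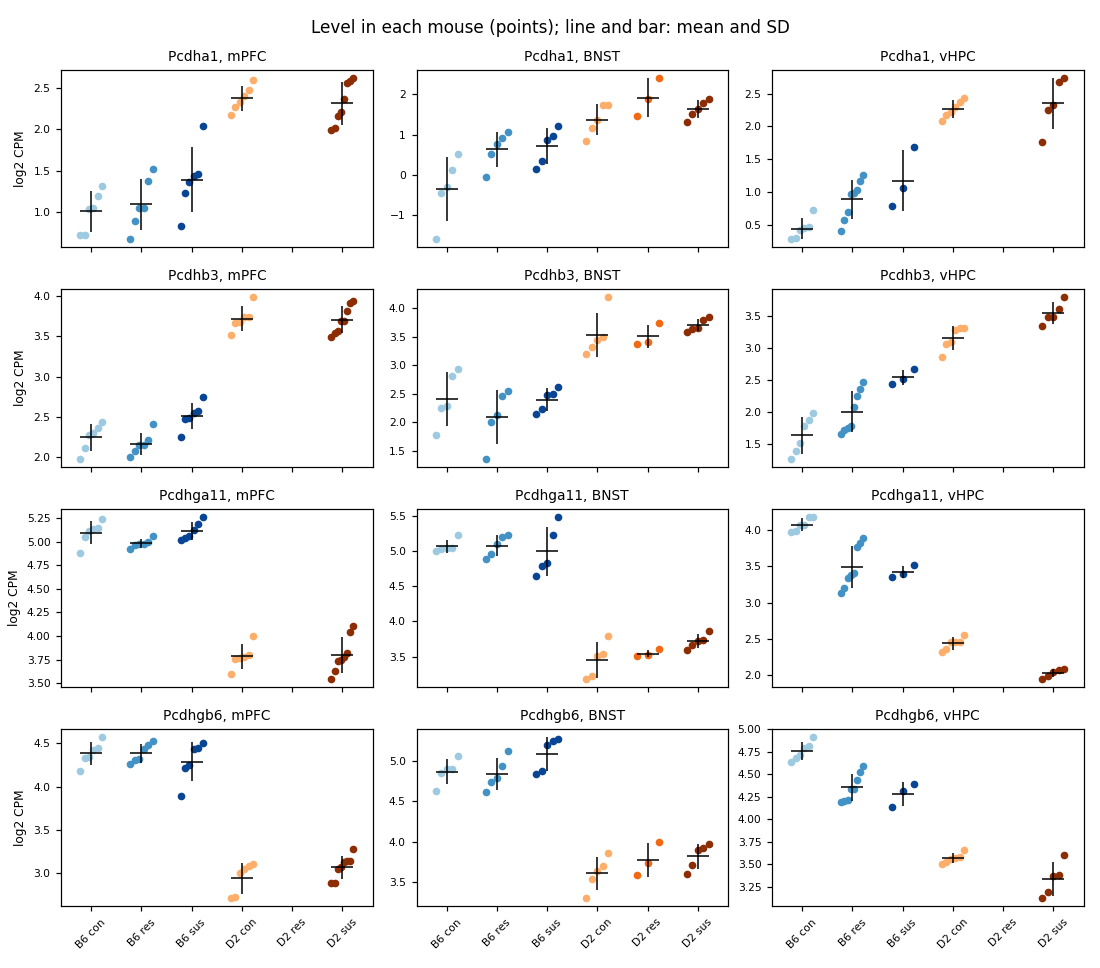
Level (y axis, log2 CPM, scales differ between panels) of Pcdha1, Pcdhb3, Pcdhga11 and Pcdhgb6 in each mouse, by strain and phenotype group (x axis) and region; each point is a mouse and each line a group mean. D2 groups lie above B6 groups for Pcdha1 and Pcdhb3 and below them for Pcdhga11 and Pcdhgb6; among controls no strain groups overlap.

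Of the 55 genes tested in every region, 7 passed the test in all 3 with 1 direction: Pcdha1, Pcdhb2, Pcdhb3 and Pcdhb8 higher and Pcdhga3, Pcdhgb6 and Pcdhga11 lower in D2 controls. Of all 16042 genes tested in every region 309, or 1.93%, passed the test in all 3, counted without regard to direction. By sign alone, 40 of the 55 had 1 direction in all regions. The matching share over all genes was not taken, and 3 control mice gave both mPFC and vHPC tissue, so nothing is read from this count. Between the mPFC and BNST, which shared no mouse, the strain differences of 56 clustered protocadherin genes were correlated across genes at r = 0.87 (Spearman's rho = 0.71), and those of 16507 genes at r = 0.57 (rho = 0.14). Between BNST and vHPC the values were r = 0.84 (rho = 0.63) over 55 genes and r = 0.47 (rho = 0.02) over 16362. These are descriptions across genes, which share their array and, in alpha and gamma, their exons. With the library set as a term in the vHPC, all 7 genes retained their direction, and all but Pcdhb3 passed the test.

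Susceptible mice allowed the strains to be compared in other animals, a comparison added after the control values were known. The border for susceptible mice was set within each strain, so the 2 groups were not chosen by the same ratio. In D2 relative to B6 susceptible mice 25 genes were higher and 6 lower in the mPFC (17.5% of all genes tested), 13 higher and 3 lower in the BNST (5.18%), and 25 higher and 7 lower in the vHPC (32.7%). All 7 genes above passed the test in the mPFC and vHPC, and 6 of them in the BNST, where Pcdha1 differed by 0.88 ± 0.30 (adjusted p = 0.091, edgeR). Pcdhga11 was lower, at -1.31 ± 0.07 (mPFC), -1.31 ± 0.14 (BNST) and -1.39 ± 0.12 (vHPC), and Pcdhb3 was higher at 1.2 ± 0.09, 1.3 ± 0.22 and 1.01 ± 0.18. The median alpha difference in the BNST was 0.83 here and 0.04 in controls. With the library set as a term the vHPC count fell to 5 genes.

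The C-type isoforms at the end of the alpha and gamma arrays were followed next. Of the 5, Pcdhac1 and Pcdhgc3 passed the test in the mPFC, beside 27.8% of all genes. In the BNST none did, beside 2.51% of all genes, and none was at an unadjusted p under 0.05 in edgeR (13.4% of all genes). In the vHPC Pcdhac1, Pcdhac2, Pcdhgc4 and Pcdhgc5 passed, beside 59.3% of all genes. With 5 genes, nothing particular to the C-type isoforms is read from these counts. Pcdhac1 was at 3.18 to 3.44 log2 CPM in B6 and 3.5 to 3.72 in D2 controls of the mPFC, a difference of 0.31 ± 0.06 (adjusted p = 0.00014, limma) with no overlap. It differed by 0.18 ± 0.04 (adjusted p = 0.0012, limma) in the vHPC and by -0.15 ± 0.27 in the BNST (-0.39 without D2 control replicate 5 to -0.0095 without D2 control replicate 4).

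Pcdhac2 was at 5.02 to 5.25 log2 CPM in B6 and 5.34 to 5.64 in D2 controls of the vHPC, without overlap, a difference of 0.35 ± 0.07 (adjusted p = 0.00031, limma); it was at 0.18 ± 0.08 in the mPFC (adjusted p = 0.084; 0.22 and 0.048 without D2 control replicate 6) and -0.20 ± 0.15 in the BNST (-0.29 to -0.063 when each control was left out, the last without D2 control replicate 2). Pcdhgc4 was at 4.01 to 4.33 and 4.53 to 4.79 in the vHPC, 0.51 ± 0.07 higher in D2 (adjusted p = 7.1e-07, limma). Pcdhgc5 was at 5.90 to 6.10 and 6.37 to 6.55 in the vHPC, 0.44 ± 0.11 higher in D2 (adjusted p = 0.0017, limma). In the mPFC its control groups overlapped (6.13 to 6.4 and 6.25 to 6.53). Its BNST values spread from 6.52 to 7.28 in B6 and from 5.38 to 7.23 in D2 controls, a spread that left a difference of -0.51 ± 0.28 within the error (adjusted p = 0.44, edgeR; -0.76 without D2 control replicate 1 to -0.33 without D2 control replicate 2). Pcdhgc3 was lower in D2 controls of the mPFC (-0.20 ± 0.07, adjusted p = 0.039, limma), a call that was lost when the 2 groups were fitted alone (adjusted p = 0.069) and in 5 of the 12 fits that left out 1 control. These were the fits without B6 control replicate 3 or 6 or D2 control replicate 3, 5 or 6 (-0.20 to -0.15, adjusted p = 0.058 to 0.13).

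**Figure D4:**
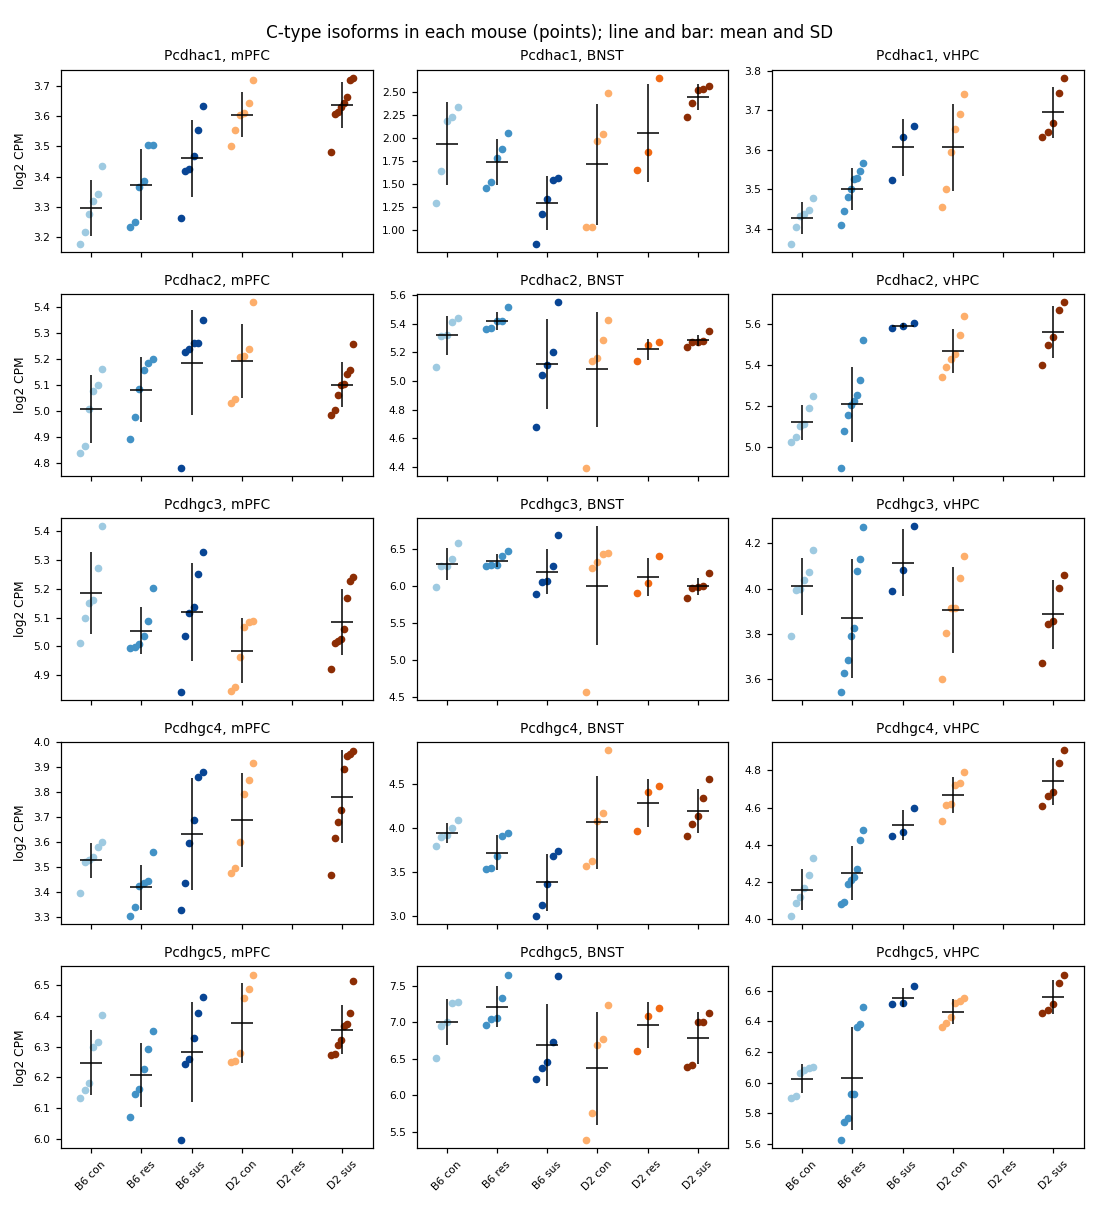
Level (y axis, log2 CPM, scales differ between panels) of the 5 C-type isoforms Pcdhac1, Pcdhac2, Pcdhgc3, Pcdhgc4 and Pcdhgc5 in each mouse, by strain and phenotype group (x axis) and region; each point is a mouse and each line a group mean. In the vHPC the B6 susceptible mice sit above the B6 controls for Pcdhac2, Pcdhgc4 and Pcdhgc5, and 1 BNST D2 control lies far below the rest of its group for Pcdhac2 (4.39) and Pcdhgc3 (4.57).

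Pcdhb1, the first gene of the beta array, was the member with the lowest level. BNST libraries held 0, 2, 7, 8 and 10 counts of it in B6 controls, 0, 1, 2, 3 and 9 in B6 resilient mice and 0 in all 5 B6 susceptible mice, where a count of 0 allows up to 3 counts a library by counting error alone. D2 controls held 0, 2, 3, 5 and 13, D2 resilient mice 8, 9 and 25, and D2 susceptible mice 10, 18, 20, 20 and 25. The D2 susceptible mice thus lay at or above the highest B6 count, and the control strains overlapped. These counts were too low for the gene to be tested, and no fold is given.

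In the vHPC Pcdhb1 showed the widest strain difference of the 56 genes, at log2 CPM values of -3.64 to -2.67 (median -3.46, n = 6) in B6 controls and -0.01 to 0.49 (median 0.36, n = 6) in D2 controls. The difference was 3.64 ± 0.14, or 12.4-fold (adjusted p = 3e-17, limma), and 4.36 with the library set as a term. B6 resilient mice lay between -2.34 and -1.85 and B6 susceptible mice at -1.80, -1.54 and -1.54, while D2 susceptible mice were at 0.99, 1.177, 1.22, 1.69 and 1.74. Levels this far below 1 CPM rest on few reads, whose number is unknown here, and on the 0.5 that was added to each count before the log. Per the study's methods a low gene was dropped unless 6 or more samples reached 1 CPM. By the adjusted values given here all B6 mice lay below that level, so Pcdhb1 was kept through the D2 mice. Its rank, fold and p-value are therefore not free of this selection, whose part was not tested. Pcdhgb8, for which only the BNST gave values, held 3, 5, 7, 8 and 11 counts in B6 controls and 1, 6, 12, 16 and 17 in D2 controls, an overlap with a difference of 0.57 ± 0.57 (adjusted p = 0.69, edgeR).

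In the mPFC the defeated mice of both strains were compared with controls of their strain. None of the 56 clustered protocadherins passed limma's test in B6 resilient, B6 susceptible or D2 susceptible mice, beside 0, 2.22 and 0% of all genes. At an unadjusted p under 0.05 there were 1, 7 and 2, beside 3.86, 18.2 and 3.87% of all genes. Between B6 susceptible and resilient mice 1 gene passed, beside 2.02% of all genes. This was Pcdhb3, at 1.99 to 2.41 log2 CPM (median 2.145, n = 6) in resilient and 2.25 to 2.75 (median 2.51, n = 6) in susceptible mice. The groups overlapped, and the difference of 0.35 ± 0.09 (adjusted p = 0.044) was past the test in 2 of the 12 fits that left out 1 mouse of these groups. The stress response differed between strains for none of the 56 (0% of all genes), with 4 at an unadjusted p under 0.05 (9.32% of all genes).

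In the BNST no clustered protocadherin gene passed edgeR's quasi-likelihood test in any stress comparison, and 0% of all genes did except between B6 susceptible and resilient mice (0.00571%). At an unadjusted p under 0.05 there were 1 in B6 resilient (1.87% of all genes), 7 in B6 susceptible (6.37%), 2 in D2 resilient (5.44%) and 8 in D2 susceptible mice (6.03%) relative to controls. Between susceptible and resilient mice there were 3 in B6 (7.55%) and 1 in D2 (1.31%), and 9 for the difference in stress response between strains (11.4%). DESeq2 called none in these comparisons except 1 gene in the last. Library set differences had been removed from the mPFC and vHPC values before deposit, but not from the BNST counts. With this unlike handling, the median within-group SD of the clustered protocadherins was 0.29 in the BNST, 0.14 in the mPFC and 0.13 in the vHPC.

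The alpha array leaned in opposite directions in the susceptible mice of the strains in the BNST, within that error. Its median difference from controls was 0.31 in D2 and -0.21 in B6 susceptible mice. Pcdha8 had the smallest p for the difference between the strains. Its B6 controls were at 0.46, 0.93, 1.39, 1.43 and 1.49 log2 CPM and the B6 susceptible mice at 0.15, 0.21, 1.125, 1.17 and 1.28. The D2 controls were at -0.00, 0.45, 0.72, 1.06 and 1.24 and the D2 susceptible mice at 1.36, 1.86, 1.91, 1.92 and 2.01, so that the D2 groups did not overlap (1.01% of all genes did not) and the B6 groups did. The D2 difference was 1.08 ± 0.27 (adjusted p = 0.52, edgeR), and the strains differed in it by 1.41 ± 0.38 (adjusted p = 0.12). Pcdhac1, a C-type isoform, was at -0.68 ± 0.27 in B6 and 0.62 ± 0.26 in D2 susceptible mice (adjusted p = 0.71 and 0.72), with a difference between these of 1.3 ± 0.38 (adjusted p = 0.15).

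In the vHPC the B6 susceptible mice differed from B6 controls in 33 genes that were higher and 5 that were lower of 56 (limma), beside 40.6% of all genes. B6 resilient mice differed in 10 higher and 5 lower (4.94 and 5.9% of all genes), and D2 susceptible mice in 4 higher and 1 lower (4.28%). In B6 susceptible mice 11 alpha genes were higher and 1 lower, 15 beta genes were higher and 7 gamma genes were higher and 4 lower, with medians of 0.34, 0.32 and 0.08. None of the library sets held both groups of B6 mice. With the set as a term 2 genes passed for B6 susceptible mice, 0 for B6 resilient mice and 0 for D2 susceptible mice, and set and stress cannot be told apart beyond that. The same limit holds for the differences of single genes between defeated and control B6 mice given below. The medians with the set as a term were 0.51 (alpha) and 0.50 (beta) in B6 susceptible mice, and -0.09 and -0.04 in D2 susceptible mice, where they were 0.09 and 0.09 without it. Oligodendrocyte markers moved with the same groups, from 2973 to 3378 CPM in B6 controls to 2190 to 3317 in resilient and 1765 to 2027 in susceptible mice, as did endothelial markers (272 to 304 CPM in controls, 211 to 233 in susceptible mice); 5 of 5 and 4 of 5 of them were lower in B6 susceptible mice, and their part in these differences was not tested.

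**Figure D5:**
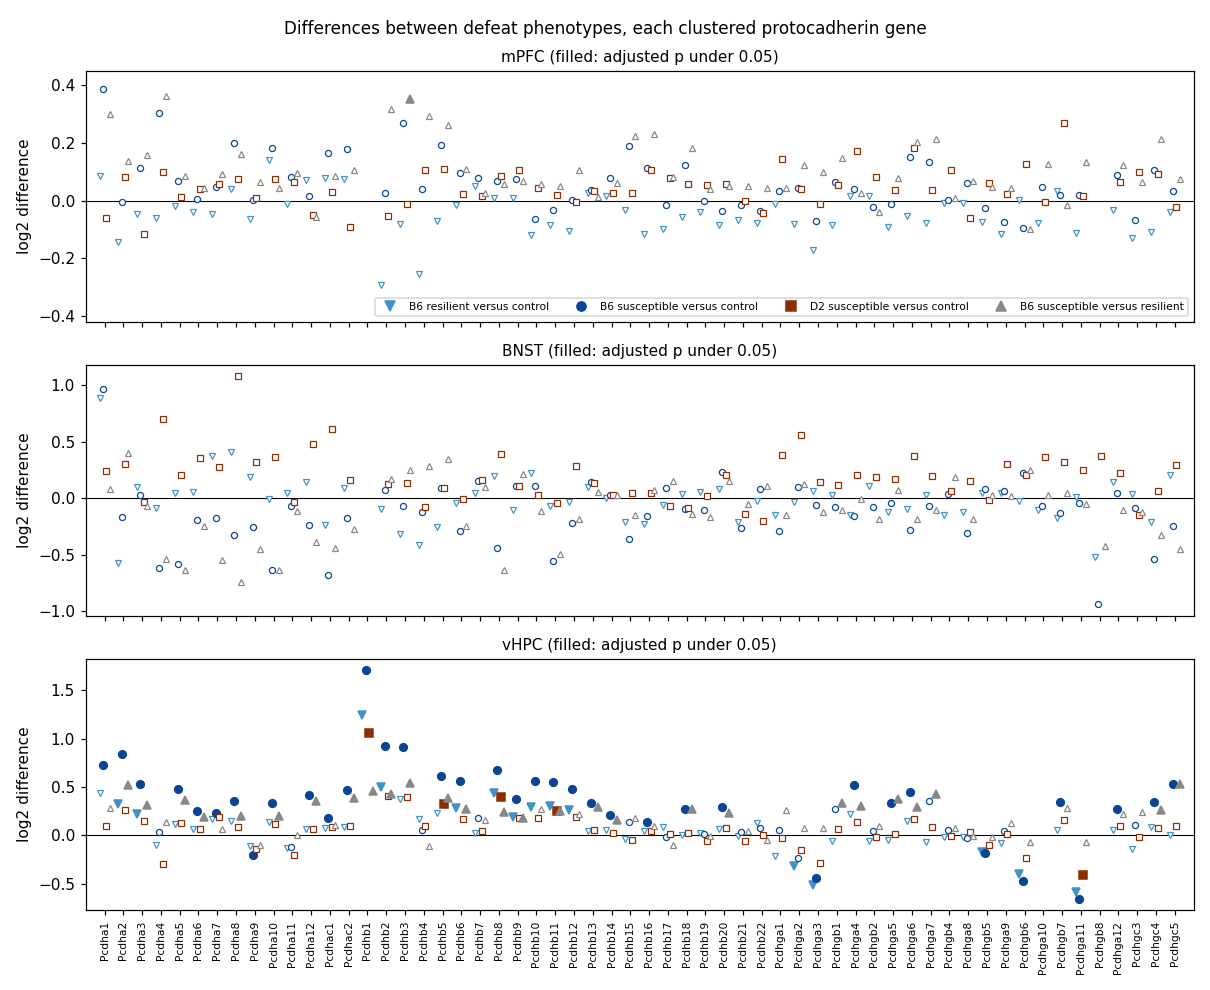
Difference between defeat phenotypes (y axis, log2; scales differ between panels) of each gene (x axis) in mPFC, BNST and vHPC. Symbols mark the comparison and filled symbols an adjusted p under 0.05; apart from Pcdhb3 in the mPFC all filled symbols are in the vHPC, 38 of them for B6 susceptible mice against controls (33 higher, 5 lower).

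Pcdha2 may serve for the alpha genes of the vHPC. Its log2 CPM was 1.51 to 2.05 (median 1.77, n = 6) in B6 controls, 1.93 to 2.232 (median 2.09, n = 8) in resilient mice and 2.54, 2.55 and 2.71 in the 3 susceptible mice. The D2 controls lay at 2.73 to 3.21 (median 3.09, n = 6) and the D2 susceptible mice at 3.03, 3.28, 3.31, 3.39 and 3.43. Susceptible B6 mice were thus above all other B6 mice, and D2 groups overlapped. Of all genes 37.7% did not overlap between B6 susceptible mice and controls, 13.3% between susceptible and resilient mice, 3.13% between resilient mice and controls and 4.98% between the D2 groups. Relative to controls the differences were 0.84 ± 0.11 in B6 susceptible (adjusted p = 2.1e-06), 0.32 ± 0.08 in B6 resilient (adjusted p = 0.011) and 0.26 ± 0.09 in D2 susceptible mice (adjusted p = 0.13; limma). It was also the 1 gene whose susceptible response differed between strains (-0.59 ± 0.14, adjusted p = 0.049, limma), beside 0.782% of all genes; 25 of the 56 did at an unadjusted p under 0.05 (18.4% of all genes). That call was lost in 16 of the 20 fits that left out 1 mouse of the 4 groups, with values of -0.65 to -0.52 over the 20.

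Of the 22 beta genes 8 passed the test in B6 resilient and 15 in B6 susceptible mice, all of them higher than in controls. Pcdhb8 rose by 0.44 ± 0.07 in resilient (adjusted p = 0.00012) and 0.67 ± 0.09 in susceptible mice (adjusted p = 5.8e-06), and by 0.39 ± 0.08 in D2 susceptible mice. The B6 controls were at 1.45 to 1.97 log2 CPM, the resilient mice at 2.01 to 2.28 and the susceptible mice at 2.26, 2.45 and 2.52. Neither defeated group overlapped the controls. Pcdhb3 rose by 0.91 ± 0.17 and Pcdhb2 by 0.93 ± 0.16 in B6 susceptible mice (limma). Pcdhb1 was at 1.24 ± 0.13 in B6 resilient, 1.7 ± 0.17 in B6 susceptible and 1.06 ± 0.15 in D2 susceptible mice, the largest values by number. All B6 mice lay below 1 CPM for it and it was kept through the D2 mice, so the size and calls of its B6 differences are not relied on. With the library set as a term the B6 susceptible value was 2.3 (adjusted p = 0.022, limma) and the D2 value 0.70 (adjusted p = 0.93, limma).

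Of the 20 gamma genes 0 were higher and 5 lower in B6 resilient mice, beside 4.94 and 5.9% of all genes. In B6 susceptible mice 7 were higher and 4 lower, with a median of 0.08, beside 40.6% of all genes past the test. The genes described here are among the lower ones. Pcdhga11 ran from 3.98 to 4.175 (median 4.07) in B6 controls, from 3.125 to 3.89 (median 3.4) in resilient mice, and was at 3.36, 3.39 and 3.51 in susceptible mice. Both defeated groups lay below all controls (-0.58 ± 0.09 and -0.65 ± 0.12, adjusted p = 8e-05 and 0.00018; limma). In D2 mice it was at 2.32 to 2.56 in controls and 1.95, 1.99, 2.05, 2.07 and 2.08 in susceptible mice (-0.41 ± 0.10, adjusted p = 0.019; -0.39 and 0.057 without D2 susceptible replicate 4). Pcdhgb6 differed by -0.40 ± 0.07 in resilient and -0.48 ± 0.09 in susceptible B6 mice, and Pcdhga3 by -0.52 ± 0.09 and -0.44 ± 0.12.

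The C-type genes of the vHPC were higher in B6 susceptible mice than in B6 controls, with the exception of Pcdhgc3 (0.10 ± 0.13, adjusted p = 0.56, limma). Of all genes, 40.6% passed the test in this comparison. No library set held both of these groups, so set and stress cannot be told apart in these values. Pcdhac2 was at 5.02 to 5.25 log2 CPM in B6 controls, 4.90 to 5.52 in resilient mice and 5.58, 5.59 and 5.61 in susceptible mice, a difference of 0.47 ± 0.09 from controls (adjusted p = 0.00031, limma). Pcdhgc5 was at 5.90 to 6.10, 5.62 to 6.5 and 6.52, 6.52 and 6.63, a difference of 0.53 ± 0.14 (adjusted p = 0.0039, limma). Pcdhgc4 rose by 0.35 ± 0.09 and Pcdhac1 by 0.18 ± 0.05 (adjusted p = 0.0024 and 0.011, limma). For Pcdhac2 and Pcdhgc5 the susceptible mice lay above every control and every resilient mouse.

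Susceptible and resilient B6 mice of the vHPC were compared without the controls. In susceptible mice 27 genes were higher and 0 lower, beside 27.6% of all genes (14.1% higher). They comprised 8 alpha, 12 beta and 7 gamma genes. Pcdhac2 was higher by 0.39 ± 0.09 and Pcdhgc5 by 0.53 ± 0.13 (adjusted p = 0.0056 and 0.0083, limma; for Pcdhgc5 0.49 and 0.054 without B6 susceptible replicate 2). The comparison rests on 3 susceptible mice, and 8 genes passed without B6 susceptible replicate 2, and 0 with the library set as a term. The alpha, beta and gamma medians were 0.20, 0.22 and 0.23 without the set and 0.23, 0.18 and 0.22 with it.

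The B6 controls of the vHPC entered both the strain comparison and the stress comparisons, so the values are set side by side without a measure of likeness. Relative to these controls Pcdha1 was at 1.81 ± 0.16 in D2 controls and 0.73 ± 0.19 in B6 susceptible mice, Pcdhb8 at 1.42 ± 0.08 and 0.67 ± 0.09, and Pcdhga11 at -1.63 ± 0.10 and -0.65 ± 0.12. In the mPFC, where the B6 controls were likewise shared, Pcdhga11 was at -1.31 ± 0.08 in D2 controls and no clustered protocadherin passed the test in B6 susceptible mice.

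Genes around and beside the clustered protocadherins were counted in 4 lists, each compared between control strains. In the BNST no gene of any list passed edgeR's or DESeq2's test, and at an unadjusted p under 0.05 in edgeR there were 4 regulators, 3 partners, 1 non-clustered protocadherin and 5 neighbours, beside 13.4% of all genes. The counts for the mPFC and vHPC below stand beside 27.8 and 59.3% of all genes that passed the test there, and nothing particular to a list is read from them. Of 26 regulators of promoter choice and array chromatin (CTCF, cohesin and its loaders, DNA methyltransferases and others), 4 were higher and 2 lower in D2 controls in the mPFC and 10 higher and 7 lower in the vHPC, with list medians of 0.05 and 0.00 there and 0.11 in the BNST. Among those with the smallest p in the mPFC were Lrif1, a partner of the chromatin protein SMCHD1 (-0.21 ± 0.05), and the corepressor Trim28 (0.18 ± 0.05). In the vHPC they were the cohesin subunit Stag1 (-0.30 ± 0.04), the cohesin loader Mau2 (0.26 ± 0.04) and Trim28 (0.26 ± 0.04). Of 21 cytoplasmic partners, kinases and proteases, 3 were higher and 2 lower in the mPFC and 4 higher and 3 lower in the vHPC, led by Psenen, a subunit of gamma-secretase, at -1.05 ± 0.14 and -1.02 ± 0.11.

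Non-clustered protocadherins, which are encoded outside the arrays, were higher in 3 of 12 and lower in 0 in the mPFC and higher in 5 and lower in 4 in the vHPC. In the mPFC these were Pcdh11x (0.38 ± 0.06), Pcdh7 (0.25) and Pcdh1 (0.24), and Pcdh18 was at -0.75 ± 0.08 in the vHPC. Of 43 protein coding neighbours within 1000 kb of the arrays or between them, 33, 34 and 33 were tested, and 6 were higher and 6 lower in the mPFC and 10 higher and 2 lower in the vHPC. Among these the growth factor Hbegf was lower (-0.55 ± 0.10) and Fgf1 higher (0.28 ± 0.05) in D2 controls of the mPFC, and Fchsd1 was higher in the vHPC (0.47 ± 0.06).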

How the data were processed

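RNA was sequenced from 88 libraries of 3 regions, each of 1 mouse, single-end in the mPFC and BNST and paired-end in the vHPC. Per the study's methods the authors trimmed adapters, removed PCR duplicates with PRINSEQ, aligned to GRCm38 with STAR and counted reads on gene exons with HTSeq and an Ensembl annotation, and the submitters' processing notes name HTSeq and limma. Reads of both strains were aligned to GRCm38, whose sequence is that of a B6 strain. How reads of exons shared within an array were counted, and whether strand was used, is not given in the sources used here. For the BNST the deposited values are raw counts per gene. For the mPFC and vHPC they are log2 CPM values, made by the authors with voom, from which ComBat then removed differences between library preparation sets and, in the vHPC, sequencing sets. Values given for single BNST mice are log2 CPM made with TMM factors and 0.5 as prior count.

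BNST counts were tested with edgeR 4.0.16 (quasi-likelihood, robust, TMM factors) over the 17515 genes that reached 1 CPM in 6 or more libraries, with DESeq2 1.42.0 as an alternative. The log2 values of the mPFC (18946 genes) and vHPC (19559 genes) were tested with limma 3.58.1 (robust empirical Bayes) in R 4.3.3. The set differences that ComBat had removed, over 10 library sets in the vHPC, were not counted in these fits. Their SE and p-values can therefore be too small. Each region had 1 fit with a mean for each group of strain and phenotype, and p-values were adjusted by the Benjamini-Hochberg method over all genes of the region with a threshold of 0.05. Log2 differences are given ± SE. The scripts were tested on simulated data. Shared sequence was counted in 96-base words, and neighbours were taken within 1000 kb. The symbol Pcdha11 belongs to 2 genes, and ENSMUSG00000007440 is called Pcdha10 here from its position.

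Genes, lists and tests were chosen with earlier results of these data known. Named were the C-type genes and Pcdhb1, the 5 highest and 5 lowest called differences between control strains, the 3 highest and 3 lowest in other comparisons, or the gene with the smallest p where none was called, the highest and lowest gene of each array per kb, and the 3 called list genes with the smallest p, of which 1 is not reported here. Pcdha9 and Pcdhga4 were added after their values were seen. The alternatives were other scalings and filters, DESeq2, limma on voom values of the BNST counts, library or sequencing sets or the prefix of the mouse ID as terms, a fit of the compared groups alone, and leaving out each mouse.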

Additional observations from a re-analysis of the deposited data

Results flagged for a closer look

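In 210 groups of 4 to 10 mice, 10 had a value far from the rest of its group by Dixon's test, and chance alone singles out about 1 in 20 groups. In the mPFC, B6 susceptible replicate 4 stood apart for 3 genes. Its log2 CPM was 2.37 for Pcdha2 (1.58 to 1.8 in the other 5 mice), 3.58 for Pcdhb8 (2.46 to 2.84) and 4.78 for Pcdhac2 (5.23 to 5.35). The same library had the lowest excitatory neuron markers of its group, whose part in these values was not tested. Also in the mPFC, Pcdhb8 was low in B6 control replicate 2 (2.57), and Pcdhga2 stood apart in B6 resilient replicate 6 (3.00) and in D2 control replicate 1 (3.28).

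In the BNST, D2 control replicate 2, the library with the high beta sum, was low for the C-type genes Pcdhac2 (4.39 against 5.14 to 5.43) and Pcdhgc3 (4.57 against 6.24 to 6.45). B6 susceptible replicate 3, the library with high striatal markers, was high for Pcdhga9 (5.71 against 5.06 to 5.17). B6 control replicate 2 was high for Pcdhga11 (5.22 against 5.00 to 5.05).

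In the vHPC the response of Pcdha2 to defeat in susceptible mice differed between the strains by the test of that difference (-0.59, D2 minus B6, limma, adjusted p = 0.049), a value that rests on 3 B6 susceptible mice.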

How the results depend on the processing

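No paired analysis was possible because the groups compared within a region were separate mice and their replicate numbers only name them. The 7 mice that gave both mPFC and vHPC tissue would pair regions, which were normalized separately and were not tested against each other. Values below are counts of clustered protocadherin genes past the test. In the vHPC, library set as a term gave 17 between control strains (46 without it), 0 for B6 resilient (15), 2 for B6 susceptible (38) and 0 for D2 susceptible mice (5), 0 between B6 susceptible and resilient mice (27), 5 between susceptible strains (32) and 0 for the difference in stress response (1). Sequencing set as a term gave 4, 2 and 17 for B6 resilient, D2 susceptible and B6 susceptible against resilient mice. A fit of the compared groups alone gave 3, 6 and 4 for D2 susceptible mice, B6 susceptible against resilient mice and the difference in response, and quantile normalization 5 for the last. In the mPFC the single call between B6 susceptible and resilient mice fell to 0 with library set, mouse ID prefix or the compared groups alone. The prefix could not be fitted for the strain comparisons. In the BNST the difference in response gave 1 by DESeq2 and 20 without TMM factors, and susceptible strains 48 against 16 without and with them, where the median of all genes shifted to 0.53 and 0.49.

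Leaving out each mouse gave, in the mPFC, 31 to 37 genes between control strains, 28 to 37 between susceptible strains, 0 to 1 for B6 susceptible mice (1 without replicate 4), 0 to 2 against resilient mice and 0 for the rest. In the BNST it gave 6 to 9 and 11 to 18 between strains and 0 under stress. In the vHPC it gave 45 to 47 and 26 to 32 between strains, 10 to 18 for B6 resilient, 32 to 38 for B6 susceptible and 3 to 5 for D2 susceptible mice (3 without replicate 3), 8 to 29 for B6 susceptible against resilient mice (8 without B6 susceptible replicate 2) and 0 to 1 for the difference in response. Between BNST control strains Pcdhgc3 (-0.17) ran from -0.25 to 0.054, the last without D2 control replicate 2, and Pcdhgc4 (0.21) from -0.057 without D2 control replicate 5 to 0.32; neither was past the test.

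Over named genes, 457 of 506 other values kept direction and call, 47 lost the call and 2 gained it. The strain comparison in susceptible mice was added after seeing the data. Counting depth limits Pcdhb1, Pcdhgb8 and Pcdha1 in the BNST. The cause of these shifts was not tested.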

Other observations

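The make-up of the gamma array was also expressed as shares of its summed level. Pcdhgc5 held 17.6 ± 1.52% of the summed gamma CPM in B6 controls and 21.6 ± 2.29% in D2 controls of the mPFC (SD, n = 6 each), and 19.2 ± 1.05% and 25.6 ± 0.99% in the vHPC. Pcdhga4 held 1.81% in B6 and 2.83% in D2 controls of the mPFC, and 2.61% and 5.00% in the vHPC. Pcdhga11 held 7.88 ± 0.44% and 3.58 ± 0.29% in the mPFC. These shares were not tested.

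Among C-type genes in the BNST, 2 passed the test between the susceptible strains. Pcdhac1 was higher in D2 than in B6 susceptible mice by 1.142 ± 0.27 (adjusted p = 0.01, edgeR), and Pcdhgc4 by 0.81 ± 0.20 (adjusted p = 0.017, edgeR). In the same comparison 1 of 26 regulators (Trim28, 0.59 ± 0.17), 1 of 21 partners (the small GTPase Rac1, -0.48 ± 0.11), 0 of 11 non-clustered protocadherins (none at an unadjusted p under 0.05 in edgeR, and 0 by DESeq2) and 4 of 34 neighbours passed the test, beside 5.18% of all genes. The 4 neighbours were lower, among them Ndufa2, of mitochondrial complex I (-0.90 ± 0.16), and Zmat2 (-0.96 ± 0.24).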
